A study of Drosophila melanogaster with 2 samples.

Results

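The 580 genomic regions described here were the peaks of an H2.0 chromatin immunoprecipitation that lay on an autosome, between genes and away from promoters. They were taken from the deposited peak list of both replicates together by position alone. A peak was kept when its summit lay on arm 2L, 2R, 3L, 3R or 4, more than 500 bp from every annotated transcript start and outside every gene span, with transposable elements left out of the annotation. They made up 15.8% of the 3678 autosomal peaks and 12.6% of the 4590 peaks of the whole list. Of the other autosomal peaks, 1754 were promoter peaks, with a summit within 500 bp of a transcript start, and 1344 lay inside genes away from promoters. Another 75 intergenic distal peaks lay on the X chromosome and served for comparison.

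The chromatin came from whole Drosophila melanogaster embryos, collected from 0 to 24 h of development, of the transgenic strain H2.0-GFP, whose insertion encodes an H2.0-eGFP fusion, eGFP being an enhanced green fluorescent protein. The fusion protein was precipitated with an antibody against GFP after sonication of the chromatin, and fragments of 200 to 800 bp were sequenced. The single group held 2 biological replicates of 1 strain, with no other genotype, treatment or age, so no test over samples was possible, and the control library was not used here. The 24-h collection of whole embryos mixes all tissues and stages, and the labels do not say which regulatory sequence drives the fusion.

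H2.0 is a homeodomain transcription factor, related to vertebrate HLX, that is known from the embryonic visceral mesoderm, the muscle layer of the gut. Homeodomain factors bind short AT-rich DNA sequences. Intergenic sequence away from promoters holds many of the enhancers that direct developmental genes, and an enhancer may act on a gene other than the nearest one, so a flanking gene named here is a neighbour by position and not a known target.

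The sequences at the summits of 5 of the strongest intergenic distal peaks are shown first, because the results turn on their composition and their neighbours. Peaks are numbered by falling signal value, the deposited enrichment signal of a peak. The next 3 sequences belong to the strongest peaks of the arms shown that hold a homeodomain core (TAATTA), a DRE (TATCGATA, bound by DREF, a factor of promoters) or a strict site of the muscle factor Mef2 (CTATTTATA). Capitals mark these 3 motifs and TTTATNG, the site class of the homeodomain factors caudal and Abd-B, on either strand. All are from the plus strand of the RefSeq genome, Release 6, and are centred on the summit. The genes given with each sequence are the nearest protein-coding genes, and a non-coding gene may lie closer.
Member 2, chr3R:16222396-16222596, between mtSSB and tara: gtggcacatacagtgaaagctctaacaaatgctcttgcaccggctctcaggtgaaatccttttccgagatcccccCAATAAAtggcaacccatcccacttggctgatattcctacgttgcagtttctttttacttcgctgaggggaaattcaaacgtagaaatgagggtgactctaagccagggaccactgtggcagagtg
Member 4, chr3R:21520274-21520474, between C15 and sp3: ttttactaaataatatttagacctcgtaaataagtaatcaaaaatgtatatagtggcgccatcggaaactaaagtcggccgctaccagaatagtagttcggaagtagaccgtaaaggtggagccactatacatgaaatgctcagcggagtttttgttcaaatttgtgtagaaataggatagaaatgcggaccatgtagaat
Member 5, chr2L:1632715-1632915, between RFeSP and chinmo: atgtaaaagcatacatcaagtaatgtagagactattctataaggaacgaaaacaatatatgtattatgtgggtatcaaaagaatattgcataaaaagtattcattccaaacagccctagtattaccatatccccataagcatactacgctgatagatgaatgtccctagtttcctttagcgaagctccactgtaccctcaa
Member 7, chr3R:14053516-14053716, between CG9922 and foxo: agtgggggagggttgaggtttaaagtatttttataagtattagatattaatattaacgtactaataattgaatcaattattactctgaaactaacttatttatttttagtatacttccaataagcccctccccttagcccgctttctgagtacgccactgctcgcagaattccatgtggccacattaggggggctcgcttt
Member 8, chr3L:11418286-11418486, between CG44362 and CG7560: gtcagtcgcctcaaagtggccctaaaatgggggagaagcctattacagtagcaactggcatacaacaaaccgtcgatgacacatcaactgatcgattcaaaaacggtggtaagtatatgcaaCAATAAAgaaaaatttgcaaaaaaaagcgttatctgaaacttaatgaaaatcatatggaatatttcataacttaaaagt
Member 16, chr2L:1643444-1643544, between RFeSP and chinmo: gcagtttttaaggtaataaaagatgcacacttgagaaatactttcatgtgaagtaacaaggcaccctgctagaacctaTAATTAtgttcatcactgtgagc
Member 116, chr3L:3382051-3382151, between Ids and sty: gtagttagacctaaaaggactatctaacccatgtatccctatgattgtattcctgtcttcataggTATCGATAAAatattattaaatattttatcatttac
Member 50, chr2L:2180205-2180305, next to aop: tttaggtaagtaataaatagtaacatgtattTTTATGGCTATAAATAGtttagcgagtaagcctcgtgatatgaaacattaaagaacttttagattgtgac
Members 4, 5 and 7, of 37.3%, 34.8% and 37.8% GC, held none of the 4 motifs within 100 bp of their summits. Member 2 held one TTTATNG match, 25 bp left of its summit, in a window of 48.3% GC. Member 8 held one 22 bp right of its summit. The homeodomain core of member 16 began 28 bp right of its summit, the DRE of member 116 began 15 bp right of its summit and overlapped a TTTATNG match, and the Mef2 site of member 50 began 11 bp left of its summit.

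The strongest intergenic distal peaks lay next to genes of several unlike kinds. The deposited signal value ranged from 2.99 to 1523, with a median of 85.4 and a middle range of 65.1 to 133. The replicate values given below are those of the highest ranked peak within 200 bp of the summit in each replicate's own list, in the order replicate 1 and replicate 2. They are not scaled between lists.

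Member 1, at chr2R:13035195-13035464, lay in a 36.8-kb gap between Su(z)2, a Polycomb group gene, and CG13323, 11912 bp from the nearest transcript start. Its signal was 1523 in the pooled list and 826 and 701 in the replicates, the highest of the 580 in all 3 lists. Member 2, with a signal of 1060.1 and replicate values of 514 and 551, lay between the long noncoding RNA (lncRNA) genes lncRNA:CR45641 and lncRNA:CR45643, 3155 bp from tara, which encodes a nuclear regulator of transcription and the cell cycle. Member 3, between COX7AL2 and CG31668, had a signal of 738 and replicate values of 386 and 351. These 3 peaks differed little between replicates relative to their height.

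Transcription factor genes flanked several of the others. Member 4 lay 7560 bp from C15, a homeobox gene of the amnioserosa and leg, and 554 bp from sp3, with a signal of 673 and replicate values of 297 and 373. Member 5 lay 18443 bp from chinmo, which encodes a BTB zinc finger factor of neuronal temporal identity, with a signal of 648 and replicate values of 393 and 258. The same gap of 20.9 kb, bounded by lncRNA:CR44603 and lncRNA:CR45695, held member 15, with a signal of 371 and replicate values of 245 and 117, and member 16, with 347, 225 and 124. By percentile within each replicate's own ranked list, replicate 1 was the higher in all 3 of these peaks. Members 5, 15 and 16 stood at percentiles 99.93, 99.83 and 99.79 in replicate 1, against 99.87, 99.45 and 99.51 in replicate 2. Member 64, 1543 bp from chinmo in the adjoining gap, had a signal of 206 and replicate values of 97.4 and 113. It went the other way, at percentiles 99.09 and 99.41. Member 7 lay 3329 bp upstream of foxo, the forkhead factor of insulin signalling, with a signal of 559 and replicate values of 249 and 304. Member 11 lay between slp1 and slp2, a pair of forkhead segmentation genes, with a signal of 401 and nearly equal replicate values of 200.9 and 201.7. Member 12 lay 656 bp from CG14762, in a 1.49-kb gap bounded on the other side by the microRNA gene mir-4981. Optix, an eye homeobox gene, was its nearest protein-coding gene on that side, 16872 bp away. Member 12 had a signal of 385 and replicate values of 139 and 245.

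Other strong peaks lay next to genes of metabolism, signalling and adhesion. Member 6 lay in a gap of 1.34 kb between the 3′ ends of blw, the ATP synthase alpha subunit, and CycB, a mitotic cyclin, with a signal of 580 and replicate values of 301 and 286. Member 10 lay in a 0.437-kb gap between the 3′ ends of Sol1 and the cytochrome P450 gene Cyp9f2, with a signal of 423 and replicate values of 212 and 212. Member 13 lay 708 bp upstream of RasGAP1, a Ras GTPase-activating protein, with 382, 187 and 195. Member 17 lay between dpr17, an immunoglobulin superfamily gene, and CG4702, with 346, 135 and 212. Among the 20 strongest peaks that were in both replicate lists, 9 had a protein-coding gene on both sides, 8 had at least 1 lncRNA neighbour, and the log2 ratio of replicate 1 to replicate 2 ranged from -0.82 to 1.07, with an SD of 0.46.

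Agreement between the replicates followed pooled signal. The pooled list is of both replicates together, so its signal and presence in the replicate lists are not independent measures. A peak was counted as present in a replicate when that replicate's thresholded list held a summit within 200 bp. Of the 580 intergenic distal peaks, 247 (42.6%, exact 95% binomial interval 38.5 to 46.7%, counting error only) were in both replicate lists, against 48.8% of all autosomal peaks, 44.2% of those inside genes, 54.3% of promoter peaks and 40.0% of X intergenic distal peaks. Replicate 1 alone held 97, replicate 2 alone held 91 and neither held 145, which is 25% against 21.5% of all autosomal peaks. The median pooled signal was 139 for those in both lists and 60.1 for those in neither. The conservative list of both replicates held 463 (79.8%), against 84.0% of all autosomal peaks. The share was 82.1% inside genes, 86.8% at promoters and 86.7% for X intergenic distal peaks.

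When all 4590 peaks were ranked by signal and divided into 4 equal classes, the highest class held 99 intergenic distal peaks, all of which were in both replicate lists. The next class held 150, of which 116 (77.3%) were in both. The third held 158, of which 30 (19.0%) were in both, and the lowest held 173, of which 2 (1.16%) were. Over all autosomal peaks the same shares were 99.5%, 77.1%, 17.4% and 2.23%, so at a given signal the intergenic distal peaks were in both lists about as often as the others. They made up 10.9%, 16.3%, 17.5% and 18.3% of autosomal peaks from the highest class to the lowest.

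The deposited q-value was below 0.05 for 372 (64.1%), against 69% of all autosomal peaks, 63.9% of those inside genes and 74.5% of promoter peaks. The median signal of 85.4 lay beside 88.2 inside genes, 104 at promoters and 88.4 for the X intergenic distal peaks. The strong and weak peaks also differed in deposited width. The greatest width, 296 bp, was shared by 481, with a median signal of 78.7 and 31.4% in both lists. The 99 narrower ones had a median signal of 228, and 96 of them were in both lists. A width of 296 bp was also the median over all autosomal peaks, and this split was not set beside other classes of peak.

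A ranked peak within 200 bp of the summit was found in both replicates for 565 of the 580, with medians of 47.8 in replicate 1 and 41.8 in replicate 2. Spearman's correlation of these values across peaks was 0.64, given as a description, since the peaks share their libraries, and the SD of the log2 ratio was 0.65. For the 247 in both lists the correlation was 0.74 and the SD 0.46. In 63 (11.2%) of the 565 the replicates differed by more than 2-fold, with values not scaled between lists. That share was not set beside other classes of peak. The SD of the log2 ratio was 0.42 in the highest signal class and 0.82 in the lowest.

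A group of 9 peaks stood apart at the low end. Members 572 to 580 had pooled signals of 2.99 to 17.2 and q-values of 0.891 to 0.906, while member 571, the next above them, had 42.7. Member 576, beside the T-box gene Doc2, had a pooled signal of 7.24 but replicate values of 59.7 and 31.5, and was in both replicate lists. Member 575, between CG8654 and tRNA:Arg-CCT-1-2, likewise had 9.52 in the pooled list and 40.7 and 37.2 in the replicates.

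**Figure D1:**
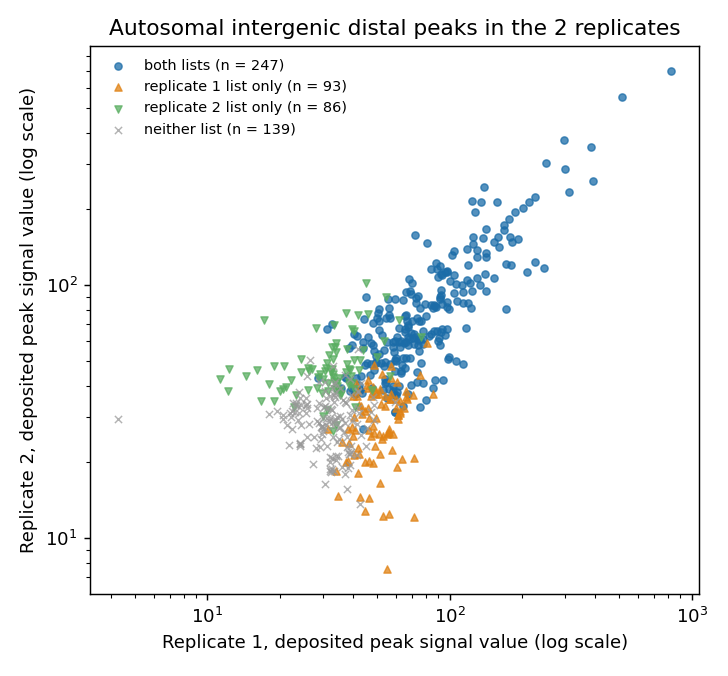
Deposited signal value of each intergenic distal peak in replicate 1 (x axis) and replicate 2 (y axis), both on log scales, for the 565 peaks with a ranked peak in both; colour and symbol give the replicate lists that hold the peak. Peaks in both lists (circles) lie along the diagonal up to 826 and 701, and peaks in neither list (crosses) lie at the low end.

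The intergenic distal peaks were spread over all 4 large autosomal arms. Counts were set against the eligible sequence, which is every autosomal base that meets the same position rule and amounts to 31.2 Mb or 28.2% of the autosomes. Arm 2L held 153 peaks (22.8 per Mb), 3L held 186 (20.5 per Mb), 3R held 139 (18.1 per Mb), 2R held 17.4% of the 580 (13.6 per Mb) and chromosome 4 held 1. Over all autosomes the density was 18.6 per Mb, beside 14.1 per Mb on the X, 21.0 per Mb inside genes away from promoters and 116 per Mb of promoter sequence. The replicate lists gave 11.7 and 11.5 per Mb between genes, 13.7 and 13.0 inside genes, and 78.4 and 87.6 at promoters.

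Much eligible sequence lies beyond the outermost peaks, towards the centromeres and the ends of the arms. Between the first and the last peak of each arm the eligible sequence came to 22.6 Mb and the density to 25.7 per Mb. There 3L had 32.7, 2L 25.6, 2R 22.8 and 3R 21.8 per Mb, and the X had 15.9. The order of 2L and 3L and that of 2R and 3R thus turned with whether the outer sequence was counted.

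Peaks were denser close to transcript starts. The median distance from a summit to the nearest transcript start was 3001.5 bp (middle range 1326 to 5700 bp), against 5950 bp for eligible bases and 4014 bp for those between the first and last peak. In replicates 1 and 2 the median was 2919.5 and 2572 bp. There were 92 peaks at 0.5 to 1 kb, 122 at 1 to 2 kb, 196 at 2 to 5 kb, 104 at 5 to 10 kb, 54 at 10 to 20 kb and 12 beyond. Density fell along these 6 bins from 38.2 to 31.5, 25.5, 17.2, 12.8 and 1.74 per Mb. Between the first and last peak it fell from 39.9 to 33.2, 27.5, 19.8, 18.7 and 9.41 per Mb, so the fall at the far end was less steep there. Replicate 1 fell from 29.1 to 0.870 per Mb and replicate 2 from 27.8 to 1.30 per Mb. The last bin rests on 12 peaks, and without it the pooled density still fell from 38.2 to 12.8 per Mb.

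**Figure D2:**
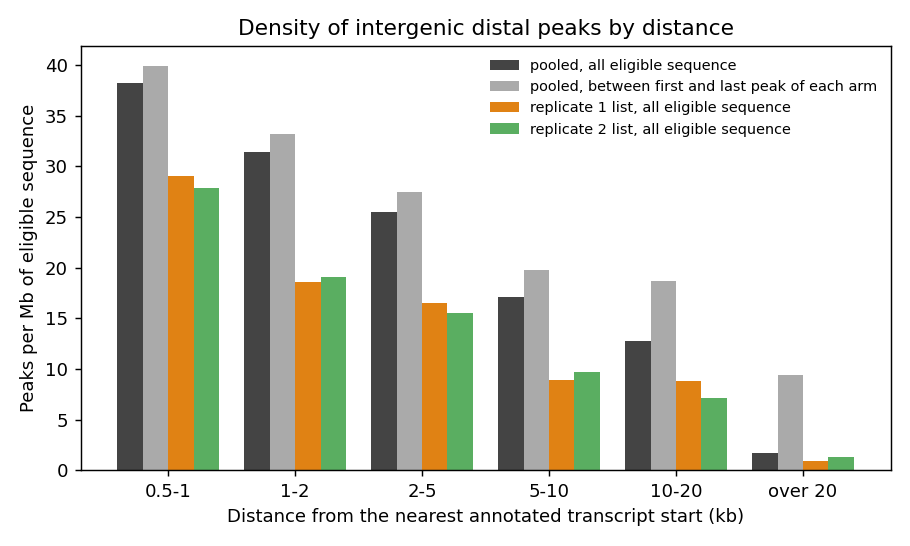
Intergenic distal peaks per Mb of eligible sequence (y axis, from 0) by distance of the summit from the nearest annotated transcript start (x axis, kb), for the pooled list over all eligible sequence, the pooled list between the first and last peak of each arm, and each replicate list. In the pooled list density falls from 38.2 per Mb at 0.5 to 1 kb to 1.74 per Mb beyond 20 kb.

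Signal varied less with distance than density did. The median signal was 97.5 in the nearest bin and 91.4, 84.4, 78.9, 81.0 and 82.6 in the others. The share in both replicate lists was 50% in the nearest bin, 31.7% at 5 to 10 kb and 46.3% at 10 to 20 kb, with no steady order. Just inside the 500-bp limit the 5 nearest peaks lay 506, 510, 512, 512 and 520 bp from a transcript start, with signals of 87.8, 160.3, 117, 59.6 and 91.5. Just outside it 5 peaks at 476, 480, 482, 488 and 491 bp had signals of 131, 75.1, 113, 273 and 114.8.

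Member 112 lay farthest from any gene. It stood 36645 bp from CG43245 and 38403 bp from NijA, which encodes the adhesion protein Ninjurin A, at chr3L:10735132-10735427, with a signal of 148 and replicate values of 66.4 and 75.9. It was in both replicate lists, and its signal was above the median of the 580.

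Short gaps between genes held more peaks per base than long ones. In gaps of up to 2 kb the density was 45.8 per Mb (57 peaks), and it fell over the gap lengths of 2 to 5, 5 to 10, 10 to 20 and 20 to 50 kb from 37.8 to 27.5, 24.0 and 14.8 per Mb. Gaps over 50 kb had 2.63 per Mb (22 peaks), or 14.1 per Mb between the first and last peak. The gap around a peak had a median length of 10253.5 bp, against 20226 bp for eligible bases and 13813 bp for those between the first and last peak.

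Peaks shared gaps. A peak was present in 419 of the 5493 gaps with eligible sequence (7.63%), and 100 of these gaps held 2 or more, with 261 peaks (45.0%) between them. In replicate 1, 38.5% of intergenic distal peaks shared a gap, and in replicate 2, 36.9%. The median distance to the next intergenic distal peak was 12334 bp and to the next peak of any kind 5431 bp. The gap with the most, 8, was the gap of 75047 bp on 3L between NijA and CG43245, where the highest signal was 260.3 and 4 were in both replicate lists. There were 6 in the chinmo gap on 2L, 6 in the 19.1-kb gap on 3L between lncRNA:CR44363 and CG7560, and 6 in the 14.0-kb gap on 3L between Ids, a lysosomal sulfatase gene, and lncRNA:CR45737. The adjoining gap of 6.55 kb between that lncRNA gene and sty, which encodes the receptor tyrosine kinase antagonist Sprouty, held 4, all in both replicate lists. The 33.0-kb gap on 3L between tRNA:Ile-TAT-1-2 and CG13898 held 5. By 200-kb bins, 3L 11200001-11400000 held 21 and 3L 600001-800000 held 15. These counts were not set beside other classes of peak. Whether peaks shared gaps more often than their number and the gap lengths would give was not tested.

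The genes on either side were mostly protein-coding. Of the 1160 flanks, 765 (65.9%) were protein-coding, 358 (30.9%) lncRNA, 24 (2.07%) tRNA, 10 antisense RNA, 2 pseudogenes and 1 a microRNA. Over eligible bases between the first and last peak, 69.5% of flanks were protein-coding, 27.7% lncRNA, 1.06% tRNA and 0.867% pseudogenes. Over all eligible bases the lncRNA share was 22.7% and the pseudogene share 4.01%. An lncRNA gene stood on at least 1 side of 294 peaks (50.7%), against 47.3% of eligible bases between the first and last peak and 39.3% of all eligible bases, so most of the distance to the latter lay with the outer sequence. A tRNA gene stood next to 23 (3.97%), against 2.02% and 1.46%.

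Both neighbours were protein-coding for 259 peaks (44.7%), 1 for 247 (42.6%) and neither for 74 (12.8%). Eligible bases between the first and last peak had 48.8%, 41.3% and 9.84%. When the density of each distance bin was applied to the sequence of each kind of gap, 286, 234 and 60.0 peaks came out, beside the 259, 247 and 74 counted. The share with neither neighbour coding was 14.2% in replicate 1 and 13.1% in replicate 2. The nearest transcript start belonged to a protein-coding gene for 385, to an lncRNA gene for 171 and to a tRNA gene for 16.

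Divergent gaps, where both neighbouring genes start at the gap, held 162 peaks (27.9%), against 23.6% of eligible bases between the first and last peak and 20.5% of all eligible bases. Replicate 1 gave 31.4% and replicate 2 gave 29.3%. The distance bins alone gave 145 for these gaps. Convergent gaps held 139 (24.0%) and gaps between genes on the same strand held 279 (48.1%), against 26.3% and 50.1% of eligible bases between the first and last peak. The nearest gene end was a 5′ end for 283 peaks (48.8%), against 45.8% of all eligible bases with a gene on both sides. That background includes the outer sequence and was not taken between the first and last peak. The nearest gene span of any kind was a median of 1970 bp away and the nearest protein-coding span 3204.5 bp.

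Peaks between genes and at promoters were set beside each other by gene. A protein-coding gene with a promoter peak flanked 142 of the intergenic distal peaks (24.5%), and such gaps made up 13.3% of all eligible bases. The latter share was not taken between the first and last peak. Counted by gene, 96 of the 698 protein-coding genes that flanked an intergenic distal peak had a promoter peak (13.8%), beside 15.8% of the 6574 that flank eligible sequence and 18.5% of all 11749 autosomal protein-coding genes. The count by peak and the count by gene thus stood on opposite sides of their backgrounds.

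The flanking protein-coding genes were read against 10 gene lists, which overlap. A gene counted when it was the nearest protein-coding gene on either side of an intergenic distal peak, which was so for 698 of 11749 autosomal protein-coding genes, or 5.94%. Among 109 transcription factor genes of development outside the homeobox class, 36 (33.0%) flanked a peak, and among 70 homeobox genes 23 (32.9%) did. The shares were 35.7% of 42 visceral mesoderm and midgut genes, 23.2% of 56 signalling ligand and receptor genes and 20.4% of 93 cell adhesion and axon guidance genes. Except for how, every visceral mesoderm and midgut gene that flanked a peak was also in another of these lists. The share of that list is therefore not a separate result. Chemoreceptor genes had 8.93% of 224, ecdysone, heat shock and stress genes 7.14% of 28, cuticle, chitin and chorion genes 4.90% of 143, ribosomal protein and translation factor genes 2.70% of 185 and digestive enzyme and immune peptide genes 2.63% of 76. Only 6574 of the 11749 genes flank eligible sequence and could count, and 10.6% of these flanked a peak. On that base the shares were 36% (other developmental transcription factors), 34.3% (homeobox), 41.7% (visceral mesoderm and midgut), 28.9% (signalling) and 22.1% (adhesion). The others had 14.6% (chemoreceptor), 9.09% (ecdysone), 5.74% (cuticle), 6.67% (ribosomal) and 3.85% (digestive).

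In replicate 1 the shares were 28.4% for other developmental transcription factors, 25.7% for homeobox genes, 23.8% for visceral mesoderm and midgut genes, 12.5% for signalling genes and 14.0% for adhesion genes, against 4.03% of all. In replicate 2 they were 24.8%, 27.1%, 28.6%, 16.1% and 11.8%, against 4.01%. The first 5 lists were above the share of all genes in both replicates. The 70 homeobox genes flank 1.63 Mb of eligible sequence and the 109 other transcription factor genes 1.64 Mb, of 31.2 Mb in all, so counts were also set against what the distance bins give for the same sequence. Beside other developmental transcription factor genes there were 67 peaks against 41.1, a ratio of 1.63. The ratio was 1.34 for signalling genes (16 peaks against 11.9), 1.26 for visceral mesoderm and midgut genes (20 against 15.9) and 1.19 for homeobox genes (37 against 31.0). It was 0.588 for adhesion genes (24 against 40.8) and 0.590 for chemoreceptor genes (21 against 35.6). It was 0.948 for ribosomal protein and translation factor genes (9 against 9.49), of which 75 of 185 flank eligible sequence, 0.829 for ecdysone, heat shock and stress genes (3 against 3.62), 0.683 for cuticle, chitin and chorion genes (6 against 8.79) and 0.598 for digestive enzyme and immune peptide genes (2 against 3.35). For the adhesion genes, the share that flanked a peak was thus above that of all genes while the number of peaks beside them was below the count given by distance.

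**Figure D3:**
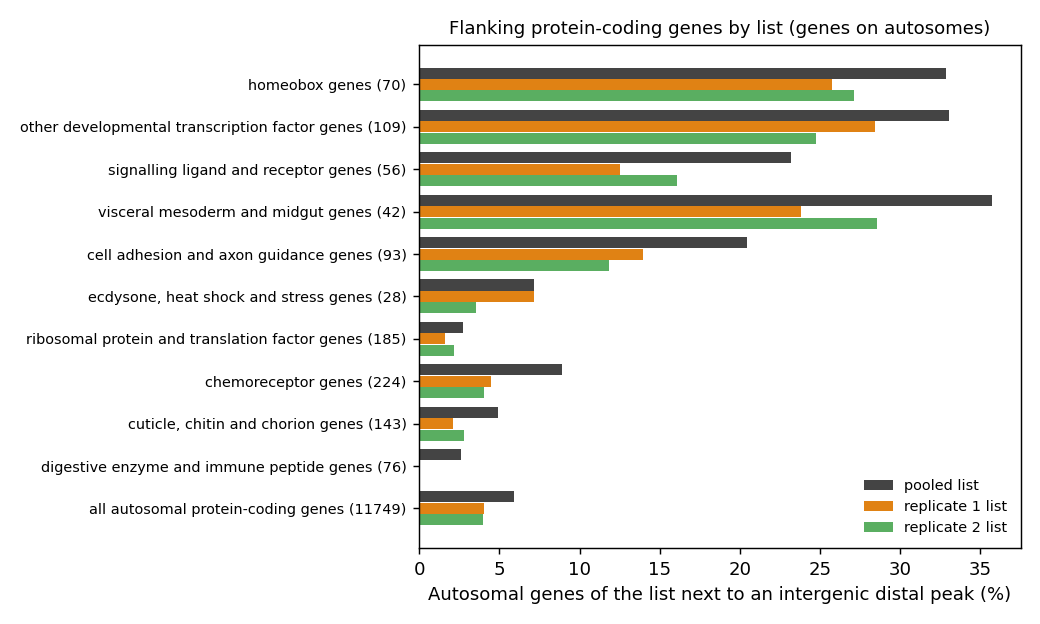
Percent of the autosomal genes of each list (x axis; number of genes in brackets) that are the nearest protein-coding gene on either side of an intergenic distal peak, in the pooled list and in each replicate list. The 5 upper lists lie between 20.4% and 35.7% in the pooled list, and all autosomal protein-coding genes lie at 5.94%. Of the protein-coding genes that flank eligible sequence, 10.6% flank a peak.

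Among homeobox genes the highest signals stood beside C15 and Optix, given above, then vvl and abd-A. The gene vvl, a POU factor of trachea and nervous system, flanked 6 peaks, the strongest with a signal of 253 and unequal replicate values of 171 and 80.4, 29088 bp away. The Hox gene abd-A had 1, with a signal of 202 and replicate values of 95.6 and 112. There were 5 peaks each beside ems, a head gap gene, and hth, a Hox cofactor, with top signals of 143 and 118. A single peak with a signal of 106 lay between Dfd and Scr, 4404 bp from Scr, and single peaks also flanked ftz (84.8) and Antp (69.0).

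Among other developmental transcription factors, chinmo flanked 11 peaks, more than any other gene of that list. The T-box genes Doc1 and Doc2, of the amnioserosa and heart, flanked 5 each, the strongest with a signal of 261 and replicate values of 130.3 and 138. The gene slp2 flanked 4 and slp1 2. The ETS repressor gene aop flanked 2, the stronger being member 50, whose sequence holds the Mef2 site, with a signal of 228 and replicate values of 104 and 136.

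Of the visceral mesoderm and midgut genes, abd-A led, followed by unc-5, a netrin receptor gene, with a signal of 184 and replicate values of 92.2 and 95.8. The peak beside how, an RNA-binding protein gene of muscle and tendon, had a signal of 139 and replicate values of 65.2 and 66.8. The peak 24129 bp from vn, an EGF receptor ligand gene, had 134, 56.0 and 81.1. The gene bin, a FoxF factor of the visceral mesoderm, had 1 peak, 1456 bp away, with a signal of 116 and replicate values of 63.3 and 60.3. These 5 peaks were in both replicate lists, and each lay in the highest or next highest signal class. Over all autosomal peaks, 99.5% and 77.1% of these classes were in both lists. Of the 20 peaks beside genes of this list, 9 were in both, against 42.6% of the 580. The gaps between wg and Wnt4 and between the FGF ligand genes pyr and ths held 2 peaks each, with top signals of 93.1 and 79.1, and neither of those top peaks was in a replicate list.

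Signalling genes were led by ptc, the Hedgehog receptor gene, with a signal of 241 and replicate values of 119 and 120.4. The axon guidance receptor gene robo2 flanked 3 peaks, the strongest with replicate values of 72.7 and 85.3. Adhesion genes were led by dpr17, then dpr20 with a signal of 206, bdl with 206 and ed, an immunoglobulin domain gene, with 195. In the last 5 lists the strongest were the one beside foxo and one 822 bp from the cuticle protein gene Cpr76Ba, with a signal of 322 and replicate values of 128 and 195. Gustatory receptor gene Gr93a had 167, eEF1gamma, a translation elongation factor gene, had 173, and Amy-p, an amylase gene, had 73.3.

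Few summits lay in transposable elements. A summit lay in an annotated transposable element in 4 cases (0.690%), against 8.98% of eligible bases between the first and last peak and 0.218% of all autosomal summits. It lay in soft-masked sequence in 109 cases (18.8%), beside 20.4% of those bases and 20.6% of all autosomal summits, which are close values. How the authors' mapping and filtering treated repeats is not given in the sources used here, and its part in these shares was not tested.

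The summits were AT-rich. The window of 50 bp to either side of the summit had a mean GC content of 35.2% (median 32.7%), against 42.6% (median 43.6%) in windows 400 bp to either side and 40.7% in eligible sequence. Peaks inside genes had 35.4% at the summit, against 42.4%, promoter peaks 36.1%, against 44.9% in their flanks, and X intergenic distal peaks 33.6%, against 41.8%. The summit was thus lower in GC than its flanks in all 4 classes of peak. In a 51-bp moving mean it reached 35.0%, 25 bp right of the summit, and 200 bp left of it the mean was 44.7%.

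**Figure D4:**
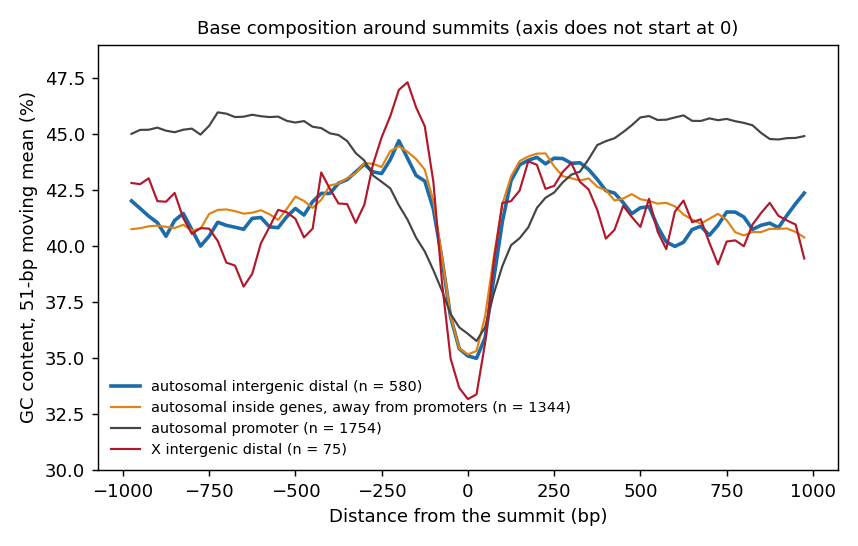
Mean GC content in a 51-bp moving window (y axis, percent, not starting at 0) by distance from the summit (x axis, bp) for the 580 intergenic distal peaks and 3 other classes of peak. All 4 classes dip at the summit, the intergenic distal peaks to 35.0%.

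Short motifs were searched on both strands of the same summit windows, and each share is given beside that in the flanks 400 bp away, in eligible windows of the same GC content and in the summit windows of all autosomal peaks. A match is a description of the letters and not a bound site. Of the homeodomain motifs, TAATTA was present at 59 summits (10.2%), against 7.33% of flanks, 10.4% of eligible windows at the same GC and 9.49% of all autosomal summits. TTTATNG was present at 76 (13.1%), against 10.7%, 13.2% and 12%. For both of these the summits were above their flanks and level with eligible windows of the same GC. TNAAGTG, the site of NK class homeodomain factors, was present at 52 (8.97%), against 7.07% of flanks, 7.18% at the same GC and 7.5% of all autosomal summits. In replicate 1 it was at 8.74% of summits and 6.83% of flanks, and in replicate 2 at 9.78% and 6.28%.

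TAATTA was present at 6.48% of summits of peaks in both replicate lists, where flanks had 6.28%, at 9.09% of those in the highest signal class, where flanks had 7.07%, and at 13.3% of those in the lowest class, where flanks had 9.25%. Summits and flanks thus moved the same way between these classes, and the difference between them was not tested. TTTATNG was present at 16.2% of the 99 summits in the highest class and at 11.6% of the 173 in the lowest, with flanks at 10.1% and 10.4%. Windows of the same GC were not taken by signal class, and this difference was not tested either.

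For motifs of mesodermal, endodermal and neural factors the backgrounds come in the same order. The GATA factor site, GATAAG, was present at 27 (4.66%), against 6.29% of flanks, 4.16% at the same GC and 5.38% of all autosomal summits, so it was below its flanks and above eligible windows of the same GC. The forkhead site TGTTTAC was present at 6 (1.03%), against 2.67%, 2.05% and 2.99%. CANCTG, the E-box of bHLH factors, was present at 72 (12.4%), against 17.2%, 12.3% and 14.2%, below its flanks and level with the same GC. The strict Mef2 site CTATTTATA was present at 3, a share of 0.517% against 0.0862%, 0.331% and 0.462%. The T-box site AGGTGTGA was present at 2, a share of 0.345% against 0.172%, 0.166% and 0.299%. Motifs with 2, 3 or 6 windows rest on few matches and have their values given alone.

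Motifs of promoters and insulators were also searched. CGATA, the site of the boundary factor BEAF-32, was present at 68 (11.7%), against 10.3% of flanks, 10.3% at the same GC, 15.2% of all autosomal summits and 20.7% of promoter summits. Its ratio of summit to flank share, 1.13, turned to 0.98 with a limit of 1000 bp from transcript starts. The DRE TATCGATA was present at 6 summits (1.03%), against 0.0862%, 0.277%, 1.77% and 3.31% of the same backgrounds. CGATA lies within TATCGATA, so every window with a DRE counts for both. GGTCACAC, the core promoter site of M1BP, was present at 2, a share of 0.345%, against no flank window, 0.0999% at the same GC, 0.897% of all and 1.71% at promoters. GAGAG, the site of the GAGA factor Trl, was present at 50 (8.62%), against 11.7% of flanks, 8.71% at the same GC and 9.82% of all. Its ratio of summit to flank share, 0.735, turned to 1.10 in windows of 100 bp to either side.

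The other motifs were those of widely acting factors. TGGGAA, the Notch pathway site of Su(H), was present at 29 (5%), against 7.33% of flanks, 5.31% at the same GC and 4.73% of all autosomal summits. GGAATG, the site of the Hippo pathway factor Scalloped, was present at 21 (3.62%), against 4.57%, 4.15% and 3.15%. TGANTCA, the AP-1 site, was present at 13 (2.24%), against 2.24%, 1.90% and 2.45%. CAGGTAG, the site of the early embryonic factor Zelda, was present at 4, a share of 0.690% against 0.431%, 0.338% and 0.462%. CCGGAAG, an ETS site, was present at 4, a share of 0.690% against 0.345%, 0.288% and 0.462%.

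**Figure D5:**
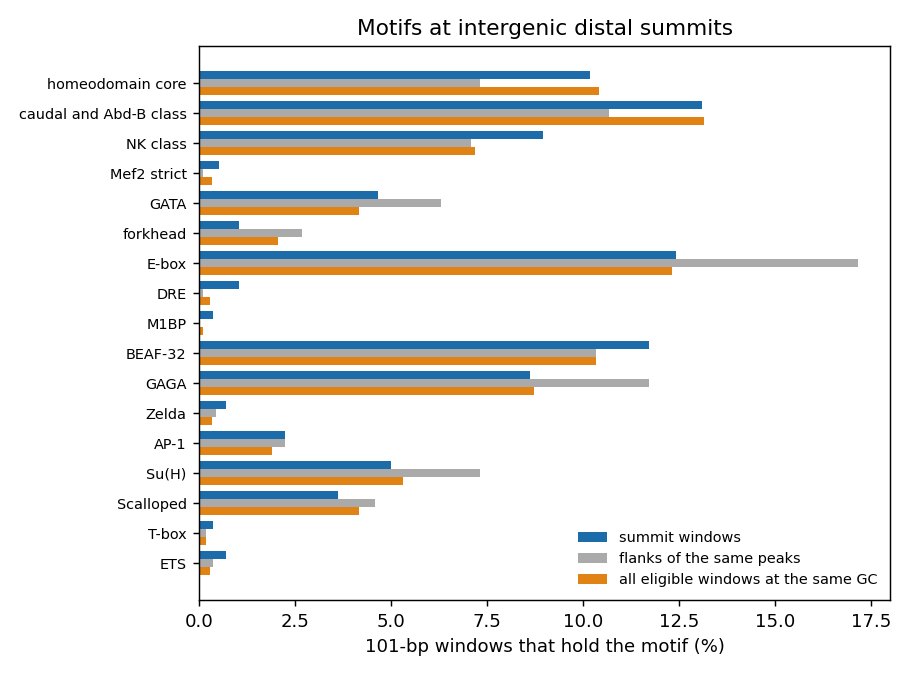
Percent of windows, 50 bp to either side of their centre, that hold each of 17 motifs (x axis), for the summits of the 580 intergenic distal peaks, the flanks 400 bp to either side, and all eligible windows weighted to the same GC content. TAATTA, the homeodomain core, stands at 10.2%, 7.33% and 10.4%.

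Among sequences of 6 bases present in at least 5% of summit or flank windows, a choice made after the data were seen, GTAGTA had the highest ratio of summit to flank share. It was present at 30 summits (5.17%) and in 1.29% of flank windows, a ratio of 4. ACCTAT (5.52% against 1.55%), CTATAC (5% against 1.47%), GAAGTA (6.72% against 2.07%) and TAGTAA (8.97% against 2.76%) followed. These sequences were also present at 3.92%, 3.67%, 3.24%, 4.43% and 7.31% of all autosomal summits. The lowest ratios belonged to the GC-rich GGCGAC at 0.215, CCGCTC at 0.230 and AGCGGC at 0.242.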

How the data were processed

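ChIP-seq peak lists of 2 biological replicates were used, per the labels with coordinates on build dm6. Used as deposited were each peak's signal value, the score (the irreproducible discovery rate, IDR, at a minimum of 830, an IDR of 0.01) and −log10 q-value, all made by the authors. The signal was used only within a list or in ranks and log2 ratios. The deposited ranked lists also give −log10 of the IDR. The sources used here name no peak caller or aligner. Depth is unknown. The replicates are labelled biological, with no more said of their origin.

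Summits were placed against Ensembl release 115 genes and the RefSeq Release 6 genome, the assembly that dm6 names, with Python 3.11.15, pandas 2.3.3 and scipy 1.17.1, after tests on simulated data. Intervals are exact binomial (95%). Named peaks were the 20 of highest signal in both replicate lists, the 5 fullest gaps, up to 4 genes of each list by signal, 5 peaks on each side of the 500-bp limit and the farthest peak. Further genes and gaps were named after their values were seen. Members and lists were chosen with earlier results of these data known. Other peak lists, distances, genes, windows and flanks were tried.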

Additional observations from a re-analysis of the deposited data

Results flagged for a closer look

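The ranked list of both replicates held 17 autosomal intergenic distal peaks at or above the score minimum that are missing from the thresholded list, among 141 such peaks in all. They lie outside the comparisons above and stand out because they passed the same score. Their median signal was 90.5. The highest, 491, lay at chr3R:16224398-16224601. Its nearest protein-coding genes, mtSSB and tara, were those of member 2, but it lay beyond the start of lncRNA:CR45643 and so in another gap. Neither replicate's thresholded list had a summit within 200 bp of it. Of the 17, 8 were on 2L, 4 had a summit in an annotated transposable element and 6 in soft-masked sequence.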

How the results depend on the processing

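No paired analysis was possible because there was 1 group. Counting error is the only error the intervals cover, and 2 replicates limit every statement. The number of peaks, 580, became 250 for the stronger part of the list by signal, 372 with q below 0.05 and 358 to 366 in 1 replicate list alone. The share in both replicate lists, 42.6%, became 86.4%, 64.8% and 67.5 to 68.4% under these. The last range is not the same quantity, since by construction each peak of a replicate list is in that list, and only the overlap with the other list counts. The median distance became 2417.5, 2448 and 2572 to 2919.5 bp, and 2114, 3616 and 4390 bp with limits of 250 and 1000 bp and with protein-coding genes only. The signal ratio to promoter peaks, 0.819, was 0.824 to 0.872 in 1 replicate list alone. The share with both neighbours coding, 44.7%, is 100% with protein-coding genes only, by construction. The TAATTA ratio of summits to flanks, 1.39, became 1.15 in the stronger part, 1.14 in wider windows (100 bp to either side) and 1.11 to 1.43 in 1 replicate list alone. The GC difference of -7.42 percentage points became -9.87 (stronger part), -9.61 (q below 0.05), -5.43 (wider windows) and -9.48 to -7.08 (1 replicate). The share of peaks sharing a gap, 45.0%, became 32.8%, 37.9%, 49.3% (conservative list), 40.7% (250 bp), 54.9% (protein-coding genes only) and 36.9 to 38.5% (1 replicate). The direction turned for the BEAF-32 ratio, from 1.13 to 0.98 with a 1000-bp limit, and for the GAGA ratio, from 0.735 to 1.10 in wider windows. Beyond what holds by construction, the cause of these changes was not tested. Over the alternatives the share of autosomal peaks, 15.8%, ran from 13.3 to 19.1%, divergent gaps, 27.9%, from 24.2 to 32.9%, and the motif ratios from 1.06 to 1.36 for TTTATNG (1.23), 1.18 to 1.56 for TNAAGTG (1.27), 0.98 to 1.55 for BEAF-32 and 0.653 to 0.760 for the E-box (0.724). In all, 43 values moved, 2 turned direction and 92 stayed within the limits set for them. Density within the outermost peaks, and its value of 26.2 per Mb for unmasked sequence, were added after the data were seen.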
